A study of Mus musculus with 8 samples.

Results

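The 10 genes described here are Atf4 and 9 genes of the amino-acid and integrated stress response that its protein drives: Ddit3, Trib3, Chac1, Sesn2, Asns, Psat1, Phgdh, Shmt2 and Slc7a11. They were taken by name and Ensembl identifier from a table of 23761 genes, and all 10 were listed in it. The table came from BMDMs (bone marrow-derived macrophages), whose RNA was sequenced. These are macrophages grown from marrow in medium conditioned by L929 fibroblasts. The 4 LysM mice carried Cre recombinase on both copies of the lysozyme M locus (LysM Cre/Cre). The 4 K2KO mice carried the same Cre together with floxed Klf2 on both chromosomes (KLF2 flox/flox). All mice were on a C57BL/6J background and 3 months of age, and the sample descriptions mark every library as vehicle. The lysozyme M locus is active in macrophages and other myeloid cells, so floxed Klf2 is open to deletion throughout the myeloid lineage, and the controls carry the Cre too. The libraries are called LysM0 to LysM3 and K2KO0 to K2KO3 after the table's columns, which give the genotype but not the mouse.

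ATF4 is the transcription factor at the centre of the integrated stress response. When a kinase that senses scarce amino acids, unfolded protein, haem shortage or viral RNA phosphorylates the translation factor eIF2, most translation slows while ATF4 mRNA is translated more. ATF4, usually paired with a C/EBP protein, then binds composite C/EBP-ATF elements and turns on genes for amino-acid synthesis and import, and, when the stress lasts, genes such as Ddit3 and Chac1. In macrophages this programme is tied to endoplasmic reticulum stress, infection and the use of serine and cystine.

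The composite element was looked for as the 8 letters TGATGNAA, where N is any base, on either strand (TTNCATCA is the reverse) in promoter windows of 300 bases from RefSeq on GRCm38.p6, 250 before to 50 after each start. All 10 genes had a window, and 4 of the 10 (40.0%) held a match, against 1219 of 27025 genes (4.51%) and 1304 of 32851 windows (3.97%). The 4 were Trib3, Chac1, Asns and Slc7a11. The 10 genes were chosen as Atf4 and its targets, so the higher share may follow from that choice. The stretches around the matches that lie before the RefSeq start are printed because they show the letters of the element that these members share, 5′ to 3′ on the strand of the gene, with the motif in capitals.
Chac1: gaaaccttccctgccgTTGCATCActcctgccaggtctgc
Asns: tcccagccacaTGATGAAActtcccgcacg
Slc7a11: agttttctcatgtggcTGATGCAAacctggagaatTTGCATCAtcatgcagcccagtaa
The Chac1 stretch is chr2:119351033-119351072 on the plus strand. The Asns stretch is chr6:7693214-7693243 on the minus strand and lies inside the longer gene model of GENCODE. The Slc7a11 stretch is chr3:50443637-50443695 on the minus strand and holds a match on each strand. The match in Trib3 lies 15 to 22 bases after the RefSeq start, at chr2:152344039-152344046, which is before the start of the GENCODE gene model. A match describes the sequence only, and for Atf4, Ddit3, Sesn2, Psat1, Phgdh and Shmt2 these letters were not in the window.

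Klf2, the floxed gene, had a mean level of 58.7 ± 12.7 in LysM and 51.4 ± 9.22 in K2KO (FPKM, SD, n = 4 each). FPKM divide the fragments of a gene by its transcript length and by the mapped fragments of the library. The log2 fold change of Klf2 was -0.18 (95% interval -0.57 to 0.21, limma adjusted p = 0.460). Since Klf2 was not clearly lower, statements of direction speak of the libraries labelled K2KO. The macrophage markers were abundant in all 8 libraries, with Csf1r at 480 to 600 FPKM and Adgre1 at 351 to 519 FPKM. All 8 macrophage markers were tested, and their summed level was 3927 to 4141 FPKM in the LysM libraries and 3683 to 3826 FPKM in the libraries labelled K2KO, without overlap. Cd14, the lipopolysaccharide co-receptor, made up most of that difference, at 1028 ± 56.7 in LysM and 829 ± 118 in K2KO (FPKM, SD, n = 4 each), and was not called (limma adjusted p = 0.0630). The part of the lower sum in the results below was not tested. Among them Mertk was called higher (log2 fold change 0.36, limma adjusted p = 0.0285), and Lyz2, the locus that carries the Cre, was called lower (-0.49, limma adjusted p = 0.0260), and neither was called once GC content and length of the transcripts were corrected for. Of the 7 fibroblast markers 6 stayed under 1 FPKM in every library, and the most abundant, Dcn, had a mean of 0.481 FPKM. Their sum was 0.258 to 1.40 FPKM in LysM and 0.614 to 3.42 FPKM in K2KO. Granulocyte markers were present in both genotypes, led by S100a9 at a mean of 129 FPKM, and their sum of 169 to 304 FPKM overlapped between LysM and K2KO (p = 1.0, exact two-sided permutation test). Of these, Camp was called lower, at 13.6 ± 2.21 in LysM and 6.40 ± 2.53 in K2KO (FPKM, SD, n = 4 each, limma adjusted p = 0.0178). Markers of the remaining types were low, with library sums of 0.313 to 2.70 FPKM for lymphocytes and 0 to 1.55 FPKM for erythroid cells. The dendritic cell sum was 0.274 to 1.01 FPKM in LysM and 1.00 to 2.11 FPKM in K2KO, and the mast cell sum was 0.176 to 0.395 and 0.329 to 0.846 FPKM (p = 0.0571 for each, exact two-sided permutation tests). Of these, Kit was called higher among genes with a mean of at least 0.1 FPKM, at 0.123 ± 0.0362 in LysM and 0.333 ± 0.0645 in K2KO (FPKM, SD, n = 4 each, limma adjusted p = 0.0314). Siglech was at 0.205 ± 0.102 and 0.463 ± 0.171 without overlap (FPKM, SD, n = 4 each, limma adjusted p = 0.0911). The part of such cells in the results was not tested.

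Levels of the 10 genes spanned more than 3 orders of magnitude. On the FPKM scale, which is per transcript length, the means over the 8 libraries were 245 for Atf4, 82.3 for Ddit3, 19.3 for Shmt2, 6.00 for Trib3, 5.81 for Sesn2, 5.40 for Asns, 2.46 for Psat1, 0.490 for Chac1, 0.430 for Phgdh and 0.179 for Slc7a11. Atf4 was above Ddit3, Ddit3 above Shmt2, and Shmt2 above Trib3 in all 8 libraries, with mean ratios of 2.98, 4.26 and 3.22. Trib3, Sesn2 and Asns were not separable, since their ranges overlapped and their means were within 1.08 times of each neighbour. Psat1 lay below Asns and above Chac1 in every library. Chac1 and Phgdh overlapped, and Slc7a11 was the lowest in all 8. Gapdh, a housekeeping gene, was itself listed at 0 to 0.500 FPKM, so levels of this size were not read as absence of a transcript.

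**Figure D1:**
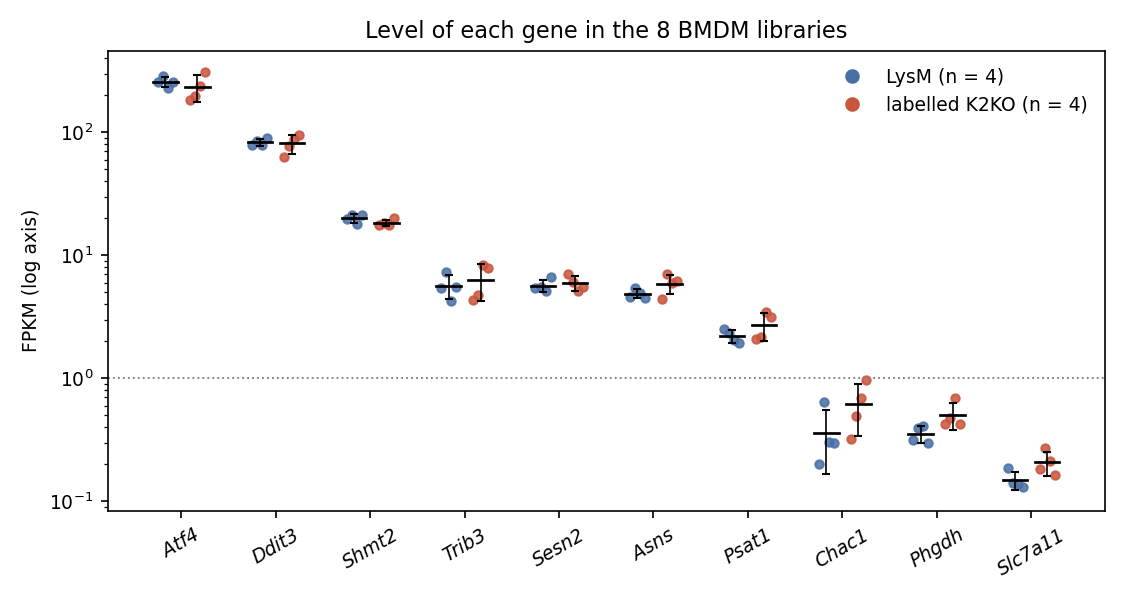
FPKM of each of the 10 genes (log axis) in the 4 LysM libraries (blue) and the 4 libraries labelled K2KO (red), with the mean (bar) and SD (whiskers) of each group of 4 and a dotted line at 1 FPKM, the least mean for the comparison over 10920 genes. The groups overlap in 9 of the 10 genes, and in Phgdh every red point lies above every blue point.

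None of the 10 genes was called different between the genotypes, and Phgdh was the only one whose libraries did not overlap between them. Genotypes were compared with limma on the log2(FPKM + 0.1) scale across the 10920 genes with a mean of at least 1 FPKM, of which 18.4% were called different, 9.84% higher and 8.61% lower with the K2KO label. A call needed an absolute log2 fold change above 0.26 beside an adjusted p below 0.05. Of all calls 53.3% were higher, or 64.1% with upper-quartile scaling. Because of the added 0.1, fold changes of low genes are understated. The comparison tested 7 of the 10 genes and called 0, and 0 had an unadjusted p under 0.05, which 37.8% of all tested genes had. The genotypes overlapped in all 7, while in 23.1% of the tested genes they did not. With genes down to a mean of 0.1 FPKM included, all 10 were tested and 0 were called, against 12.7% of 14521 genes. Ordinary least squares for each gene in place of limma also called 0 of 7, with 0 at an unadjusted p under 0.05. The share called among all genes itself hung on single libraries, and was 6.74% without LysM1, 9.43% without LysM2, 3.09% without LysM3, 6.47% without K2KO0, 6.65% without K2KO1 and 4.54% without K2KO2, but 21.4% without LysM0 and 26% without K2KO3. In bulk RNA, a change in the number of cells of a type cannot be told apart from a change in RNA per cell.

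Atf4 (chromosome 15, 80255184 to 80257541, plus strand of GRCm38) encodes the regulator itself. It was at 256, 287, 229 and 257 FPKM in LysM0 to LysM3, and at 184, 198, 239 and 312 FPKM in K2KO0 to K2KO3. The LysM libraries lay close together, while the libraries labelled K2KO held both the 2 lowest values and the highest, so the genotypes overlapped. The log2 fold change was -0.17 (SE 0.15, 95% interval -0.52 to 0.18, limma adjusted p = 0.452), and the exact two-sided permutation test gave p = 0.400. Single libraries moved this value, to -0.32 without K2KO3 (limma adjusted p = 0.0617), -0.06 without K2KO0 and -0.10 without K2KO1.

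Of the stress factors induced downstream, Ddit3 encodes CHOP, a C/EBP-family protein that promotes cell death when endoplasmic reticulum stress persists. Ddit3 (chromosome 10, 127290774 to 127296288, plus strand) was at 78.5, 84.7, 79.2 and 90.3 FPKM in LysM0 to LysM3 and at 63.3, 77.5, 88.7 and 95.6 FPKM in K2KO0 to K2KO3. Its lowest and its highest value were both in libraries labelled K2KO, and the log2 fold change was -0.05 (95% interval -0.32 to 0.22, limma adjusted p = 0.795). Ddit3 shares 105 of its 1713 exon bases with a second gene model of the same name on the same strand, which is not analysed here, and 68 with Mars and 13 with Gm4189 on the opposite strand. Whether the counting used strand is not given in the sources used here. Mars, which encodes the methionyl-tRNA synthetase, was at 9.58 to 12.2 FPKM and had a log2 fold change of 0.05 (limma adjusted p = 0.671).

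Trib3 encodes a pseudokinase that CHOP and ATF4 induce and that dampens ATF4 and AKT signalling. Trib3 (chromosome 2, 152337422 to 152344032, minus strand) was at 5.48, 7.29, 4.25 and 5.54 FPKM in LysM0 to LysM3 and at 4.31, 4.77, 8.36 and 7.97 FPKM in K2KO0 to K2KO3. K2KO2 and K2KO3 were above every LysM library, K2KO0 and K2KO1 were not. The difference was 0.13 on the log2 scale (95% interval -0.40 to 0.67, limma adjusted p = 0.702), and it ranged from -0.02 without K2KO2 to 0.30 without K2KO0.

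Chac1 encodes an enzyme that breaks down glutathione and is induced by the ATF4 and CHOP arm. Chac1 (chromosome 2, 119351229 to 119354381, plus strand) was at 0.200, 0.643, 0.304 and 0.299 FPKM in LysM0 to LysM3 and at 0.321, 0.495, 0.689 and 0.965 FPKM in K2KO0 to K2KO3. LysM1 reached into the range of the libraries labelled K2KO, and the spread within a genotype was the widest of the 10 genes, with a coefficient of variation of 53.6% in LysM and 44.8% in K2KO. The log2 fold change of 0.64 therefore had a 95% interval of -0.16 to 1.44 (limma adjusted p = 0.243).

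Sesn2 encodes a leucine sensor that holds mTORC1 back when amino acids are short. Sesn2 (chromosome 4, 132492032 to 132510501, minus strand) was at 5.41, 5.54, 5.12 and 6.62 FPKM in LysM0 to LysM3 and at 7.03, 6.12, 5.09 and 5.57 FPKM in K2KO0 to K2KO3. The genotypes overlapped over most of their range, with a log2 fold change of 0.06 (95% interval -0.19 to 0.32, limma adjusted p = 0.698).

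The enzymes of amino-acid synthesis were led in level by Shmt2, the mitochondrial hydroxymethyltransferase that splits serine into glycine and a one-carbon unit. Shmt2 (chromosome 10, 127517123 to 127522444, minus strand) was at 19.9, 21.2, 17.9 and 21.5 FPKM in LysM0 to LysM3 and at 17.8, 18.4, 17.6 and 20.003 FPKM in K2KO0 to K2KO3. LysM2 lay among the lower values of the libraries labelled K2KO, so the genotypes overlapped. Shmt2 had a log2 fold change of -0.12, and its 95% interval of -0.29 to 0.04 was the narrowest among the 10 genes (limma adjusted p = 0.247).

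Asns makes asparagine from aspartate and is a classical reporter of amino-acid shortage. Asns (chromosome 6, 7675169 to 7693254, minus strand) was at 4.62, 5.47, 4.97 and 4.53 FPKM in LysM0 to LysM3 and at 4.45, 7.02, 5.93 and 6.18 FPKM in K2KO0 to K2KO3. K2KO1, K2KO2 and K2KO3 were above every LysM library, whereas K2KO0 was the lowest of the 8. The log2 fold change was 0.25 (95% interval -0.04 to 0.54, limma adjusted p = 0.188), and it was 0.37 without K2KO0 (limma adjusted p = 0.0534) but 0.16 without K2KO1 (limma adjusted p = 0.405).

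Phgdh and Psat1 encode the enzymes that catalyse consecutive steps of serine synthesis from glycolysis, beginning with Phgdh. Psat1 (chromosome 19, 15904678 to 15947337, minus strand) was at 2.54, 2.33, 2.04 and 1.93 FPKM in LysM0 to LysM3 and at 2.07, 2.17, 3.46 and 3.13 FPKM in K2KO0 to K2KO3. K2KO2 and K2KO3 again stood above the rest, and the log2 fold change was 0.26 (95% interval -0.14 to 0.65, limma adjusted p = 0.310). It was 0.13 without K2KO2 and 0.37 without K2KO0. Phgdh (chromosome 3, 98313170 to 98339990, minus strand) was at 0.316, 0.396, 0.411 and 0.296 FPKM in LysM0 to LysM3 and at 0.430, 0.478, 0.687 and 0.423 FPKM in K2KO0 to K2KO3. It was the only one of the 10 genes whose genotypes did not overlap, being higher in each library labelled K2KO. Among the 14521 genes with a mean of at least 0.1 FPKM, 19.8% did not overlap and 11.5% were higher in this way. The log2 fold change was 0.40 (95% interval -0.05 to 0.84, limma adjusted p = 0.195), and the exact two-sided permutation test gave p = 0.0286, the smallest that 35 splits allow. Phgdh has 9 near-identical copies, defined by 95% or more identity across 200 or more bases, of which 3 are listed, so its reads could have been split and its value is uncertain. Phgdh and its listed copies summed to 0.577 ± 0.0886 in LysM and 0.860 ± 0.156 in the libraries labelled K2KO (FPKM, SD, n = 4 each). This sum, which holds Phgdh itself, did not overlap either. The listed copies alone summed to 0.188, 0.238, 0.261 and 0.204 FPKM in LysM0 to LysM3. In K2KO0 to K2KO3 they summed to 0.376, 0.567, 0.223 and 0.254 FPKM, so without Phgdh the genotypes overlapped.

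Slc7a11 encodes xCT, the transporter that exchanges glutamate for cystine and so feeds glutathione synthesis. Slc7a11 (chromosome 3, 49892526 to 50443614, minus strand) was at 0.186, 0.140, 0.139 and 0.130 FPKM in LysM0 to LysM3 and at 0.183, 0.270, 0.215 and 0.165 FPKM in K2KO0 to K2KO3. LysM0 lay inside the range of the libraries labelled K2KO, and the log2 fold change of 0.30 had a 95% interval of -0.21 to 0.82 (limma adjusted p = 0.394). A run of 373 bases in its longest transcript is at least 95% identical to tubulin genes, among them Tuba1b at 52.0 to 88.8 FPKM, so this low level is uncertain.

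**Figure D2:**
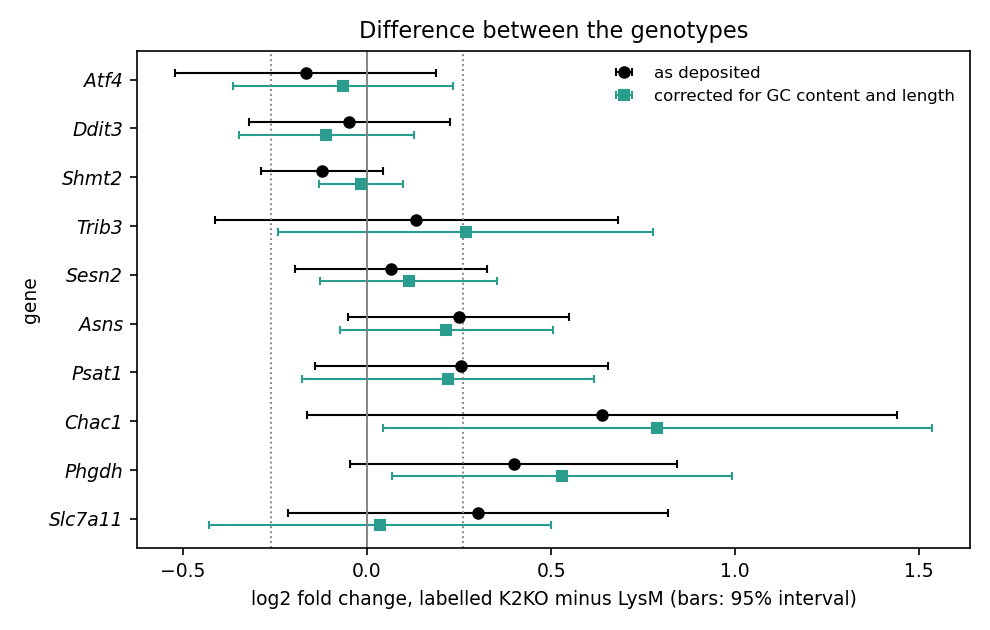
Log2 fold change of each gene, libraries labelled K2KO minus LysM, with its 95% interval (bars), from the fit of genes with a mean of at least 0.1 FPKM, on the deposited values (circles) and after correction for GC content and transcript length (squares). Dotted lines mark 0.26 either side of 0, and every circle's interval crosses 0, whereas the intervals of the squares of Chac1 and Phgdh do not.

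The level of genes with high GC content, relative to genes with low GC content, moved with genotype in this table. Between the eighth of genes with the highest GC content and the eighth with the lowest, the median deviation from a gene's mean differed by 0.19, 0.23, 0.01 and 0.27 (log2) in LysM0 to LysM3. In K2KO0 to K2KO3 it differed by -0.18, -0.25, -0.29 and 0.03, so K2KO3 and LysM2 were the libraries nearest to 0. Each library was therefore also corrected for GC content and length by local regression, after which 9.59% of the 10920 genes were called (4.34% higher, 5.25% lower) and again 0 of the 7 tested among the 10. With genes down to 0.1 FPKM the corrected log2 fold changes were 0.79 for Chac1 and 0.53 for Phgdh, each at an unadjusted p under 0.05 but at limma adjusted p = 0.155 and 0.128. In that fit the log2 fold change of Slc7a11 was 0.04. The part of GC content in these differences was not tested further.

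The libraries labelled K2KO differed from each other more than the LysM libraries did in 6 of the 7 tested genes, Shmt2 being the exception. The SD of log2(FPKM + 0.1) was 0.133 in LysM against 0.339 in K2KO for Atf4, 0.094 against 0.261 for Ddit3 and 0.313 against 0.485 for Trib3. Over all 10920 genes the SD was larger in K2KO for 57.4%, with medians of 0.117 and 0.133. The libraries labelled K2KO fell in the same order in some of the genes. Atf4, Ddit3 and Chac1 all ran from K2KO0 at the bottom through K2KO1 and K2KO2 to K2KO3 at the top, while Trib3 and Psat1 had K2KO0, then K2KO1, then K2KO3 and K2KO2. The other 5 genes followed neither order: K2KO3 was the lowest in Phgdh and Slc7a11, K2KO2 in Sesn2 and Shmt2, and K2KO0 in Asns, where K2KO1 was the highest. From the lowest to the highest of the 4 libraries, Atf4 spanned 0.76, Ddit3 0.59, Trib3 0.94, Chac1 1.34 and Psat1 0.71 on the log2 scale. After the GC and length correction the orders of these 5 genes were the same, and their spans were 0.64, 0.53, 0.94, 1.18 and 0.65. K2KO3 lay above the 8-library mean in 8 of the 10 genes and K2KO2 in 7, against 3 in K2KO0. Among the LysM libraries, LysM2 was below the mean in all 10 genes, and LysM1 was above it in 6. How many of all tested genes share these orders, or lie above the mean in each library, was not counted. The orders and counts are therefore not read as particular to the 10 genes. Within K2KO, relative depth estimated from the lowest values was 1.37 and 1.44 times that of LysM0 in K2KO0 and K2KO1 and 0.901 and 0.979 times in K2KO2 and K2KO3. The part of depth in this order was not tested.

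**Figure D3:**
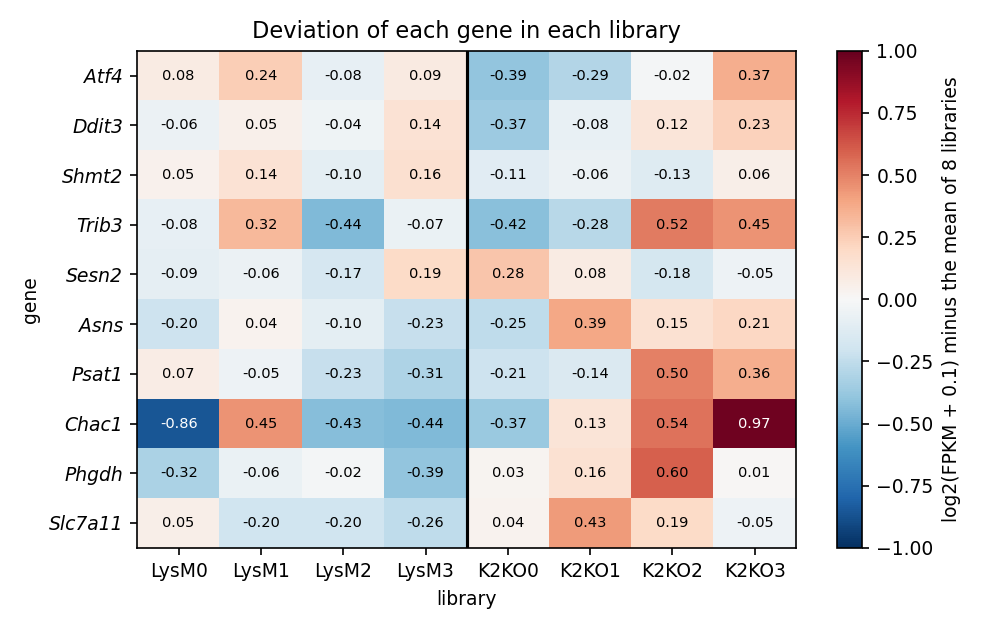
Deviation of log2(FPKM + 0.1) from the mean of the 8 libraries, for each of the 10 genes (vertical axis, ordered by mean level) in each library (horizontal axis), with LysM left and K2KO right of the black line. Red is above and blue below the mean: LysM2 is below it in all 10 genes, and Atf4 runs from -0.39 in K2KO0 to 0.37 in K2KO3.

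The mean z-score of the 7 tested members, centred within each genotype, was set against every other tested gene over the 8 libraries. Among the closest genes were Abcf2 (Pearson r = 0.986), 1810058I24Rik (0.983), Snx17 (0.975) and U2af1l4 (0.974). These are among the highest of the correlations with all tested genes over only 8 libraries, which share depth and base composition, and they are given as a description. Abcf2 ran from 23.0 FPKM in K2KO0 to 25.9 FPKM in K2KO3 and from 23.6 to 25.7 FPKM in LysM. The score is a mean of the members, so their own correlations with it are not given. Sesn2 was highest in K2KO0 (7.03 FPKM), where Atf4 was lowest, and lowest in K2KO2 (5.09 FPKM) within its genotype.

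The wider pathway was described with 10 further lists, which held 142 tested genes. In the libraries labelled K2KO 19 of them were called higher and 9 lower, together 28, or 19.7% against 18.4% of all tested genes. The median log2 fold change was 0.03 over the 142 genes and 0.01 over all 10920. Of the 28 calls 11 were kept after the GC and length correction. Leaving out a library kept 11 without LysM1, 12 without LysM2, 5 without LysM3, 11 without K2KO0, 11 without K2KO1 and 7 without K2KO2, but 25 without LysM0 and 26 without K2KO3. The 5 genes called in every leave-one-out fit were Eif2b4, Dars, Ddit4, Atg12 and Nprl2.

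Of the sensors and the eIF2 machinery, all 16 genes were tested, 1 was higher and 1 lower, and the median log2 fold change was 0.07. The calls made up 12.5%, against 18.4% of all tested genes. The kinases that phosphorylate eIF2 (Eif2ak1 to Eif2ak4) were not called. Eif2b4, a subunit of the exchange factor that recharges eIF2, was at 17.4, 22.2, 20.1 and 21.1 FPKM in LysM0 to LysM3 and at 13.9, 12.3, 14.0 and 15.3 FPKM in K2KO0 to K2KO3. It was lower in each library labelled K2KO, with a log2 fold change of -0.54 (SE 0.09, limma adjusted p = 0.0112). Impact, which restrains the kinase GCN2, rose from 12.5 ± 1.51 to 17.4 ± 1.70 FPKM (SD, n = 4), with 0.47 as its log2 fold change (limma adjusted p = 0.0179), which became 0.31 after the GC correction (limma adjusted p = 0.0503). The most abundant members were Eif2b2 and Ppp1r15a, the latter encoding the phosphatase subunit GADD34, at log2 fold changes of 0.14 and -0.19, neither called (limma adjusted p = 0.172 and 0.0956). With the correction Eif2b2 was called, at 0.28 (limma adjusted p = 0.0150).

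Among transcription factors that partner ATF4 or act beside it, 12 of 12 were tested, 1 was higher and 1 lower, and the median log2 fold change was -0.08. The calls made up 16.7%, against 18.4% of all tested genes. Nupr1, a stress-induced chromatin protein downstream of ATF4, was at 8.82, 9.90, 12.2 and 13.1 FPKM in LysM0 to LysM3 and at 6.08, 4.95, 5.94 and 7.88 FPKM in K2KO0 to K2KO3. It was lower in each library labelled K2KO, with a log2 fold change of -0.82 (limma adjusted p = 0.0139) and of -0.80 after the correction (limma adjusted p = 0.0214). Nfe2l2, which encodes the antioxidant factor NRF2, rose from 74.4 ± 6.55 to 91.4 ± 7.53 FPKM (SD, n = 4, limma adjusted p = 0.0380), a log2 fold change of 0.30 that was 0.26 after the correction and no longer called (limma adjusted p = 0.0912). Atf3 was at 239 ± 14.0 and 244 ± 17.0 FPKM (SD, n = 4). Cebpb, which encodes a partner of ATF4, was at 437 ± 46.7 and 334 ± 114 FPKM (SD, n = 4). Within K2KO it was at 289, 245, 301 and 500 FPKM, so K2KO3 was above every LysM library, and the log2 fold change of -0.44 was not called (limma adjusted p = 0.138). It was called without K2KO3, at -0.65 (limma adjusted p = 0.00699), and was -0.06 after the correction (limma adjusted p = 0.757). Tfe3, a factor of lysosome and autophagy genes, was at -0.22 (limma adjusted p = 0.0274), under the fold threshold, and was called after the correction, at -0.28 (limma adjusted p = 0.0229).

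Amino-acid transporters were tested in 10 of 18 genes, of which 5 were higher and 0 lower, with a median log2 fold change of 0.20, where 9.84% of all tested genes were higher. Each of the 5 calls held in at most 2 of the 8 fits with a library left out. Slc38a2, the SNAT2 carrier of neutral amino acids, was at 11.5, 11.2, 10.9 and 11.1 FPKM in LysM0 to LysM3 and at 15.0, 14.9, 15.4 and 12.0 FPKM in K2KO0 to K2KO3. K2KO3 came closest to the LysM libraries, but the genotypes did not overlap (log2 fold change 0.35, limma adjusted p = 0.0222). The other 4 were Slc36a4, Slc38a1, Slc36a1 and Slc7a6, with log2 fold changes of 0.55, 0.37, 0.34 and 0.26. Slc36a1 and Slc36a4 are proton-coupled carriers of the SLC36 family. After the GC and length correction 0 of the 10 transporters were called, while the median log2 fold change was 0.16. Slc3a2, the heavy chain that pairs with xCT, was at 308 ± 29.9 and 334 ± 40.7 FPKM (SD, n = 4, limma adjusted p = 0.429). With quantile normalization Slc3a2 was called (limma adjusted p = 0.0447). Its log2 fold change was 0.12 and reached 0.31 among the alternatives. Slc38a7, the other most abundant member, had a log2 fold change of -0.05 (limma adjusted p = 0.580). Slc1a5 was lower in each library labelled K2KO, at 12.5 ± 0.422 in LysM and 10.8 ± 0.220 in K2KO (FPKM, SD, n = 4 each). Its log2 fold change of -0.21 was under the fold threshold (limma adjusted p = 0.0247). Of the 10 tested transporters 7 had a log2 fold change above 0.

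The serine, glycine and one-carbon enzymes beside Psat1, Phgdh and Shmt2 were tested in 12 of 16 genes, with a median log2 fold change of 0.08. Of these 12, 1 was higher and 0 lower, or 8.33% called against 18.4% of all tested genes. The one was Dld, a subunit shared by the glycine cleavage system and pyruvate dehydrogenase, at a log2 fold change of 0.27 (limma adjusted p = 0.0354), which the correction took below the fold threshold (0.13, limma adjusted p = 0.171). Mthfd2, the mitochondrial folate enzyme that follows Shmt2, was at 8.22 ± 0.546 and 8.39 ± 1.13 FPKM (SD, n = 4, limma adjusted p = 0.890), and was named here after its values were seen. Mthfs and Mat2a, the most abundant, were at log2 fold changes of -0.19 and 0.23, neither called (limma adjusted p = 0.145 and 0.102). Of the enzymes of proline, aspartate, alanine and cysteine, 11 of 16 were tested, 0 were higher and 2 lower, with a median log2 fold change of -0.06. This share of 18.2% was near the 18.4% of all tested genes called. Bcat2, a branched-chain aminotransferase, fell from 52.4 ± 1.51 to 39.5 ± 4.17 FPKM (SD, n = 4, limma adjusted p = 0.0137). It was lower in each library labelled K2KO and was called after the correction (limma adjusted p = 0.0388). Glul and Got1, the most abundant, were not called (limma adjusted p = 0.613 and 0.882).

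All 20 cytosolic aminoacyl-tRNA synthetases were tested, and 1 was higher and 0 lower, or 5.0% called against 18.4% of all tested genes. Their median log2 fold change was 0.01. The one was Dars, the aspartyl-tRNA synthetase, at 25.3, 24.0, 21.2 and 21.2 FPKM in LysM0 to LysM3 and at 29.9, 33.8, 34.1 and 29.6 FPKM in K2KO0 to K2KO3. It did not overlap between genotypes (log2 fold change 0.47, SE 0.08, limma adjusted p = 0.0112). Nars was at 0.19 (limma adjusted p = 0.0383), under the fold threshold, and Sars at -0.05 (limma adjusted p = 0.675). Nars was called in 1 of the alternatives with all libraries. Over the whole list the genotypes did not overlap in 5 of the 20 genes, against 23.1% of all tested genes.

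Of 18 further stress-induced targets, 17 were listed and 14 tested, of which 4 were higher and 1 lower. These calls were 35.7% of the list, against 18.4% of all tested genes, and the median log2 fold change was 0.20. Ddit4 (REDD1), an inhibitor of mTORC1, was at 1.17, 0.938, 1.23 and 1.13 FPKM in LysM0 to LysM3 and at 2.22, 1.99, 2.56 and 1.96 FPKM in K2KO0 to K2KO3. Every library labelled K2KO was well above every LysM library, with a log2 fold change of 0.91 (SE 0.14, limma adjusted p = 0.00825) that was 1.08 after the correction (limma adjusted p = 0.00857). The libraries K2KO0 to K2KO3 did not follow the order seen in Atf4, Ddit3 and Chac1. Atg12, an autophagy conjugation protein, rose by 0.35 (log2, limma adjusted p = 0.0111), Vegfa by 0.43 (limma adjusted p = 0.0489) and the chloride channel gene Clic4 by 0.43 (limma adjusted p = 0.0373), and the corrected values were 0.19, 0.40 and 0.36. None of these 3 was called after the correction, Atg12 by its fold (limma adjusted p = 0.0328) and Vegfa and Clic4 by their p (limma adjusted p = 0.0788 and 0.0738). With a library left out, Vegfa was called in 1 and Clic4 in 2 of the 8 fits. Bbc3, which encodes the BH3-only protein PUMA, was lower by -0.40 (log2, limma adjusted p = 0.0166), and its value after the GC and length correction was -0.08 (limma adjusted p = 0.492). Sqstm1 and Cdkn1a, the most abundant, were not called (limma adjusted p = 0.177 and 0.574). With quantile normalization Sqstm1 was called (limma adjusted p = 0.0329). Its log2 fold change was 0.18 and reached 0.37 among the alternatives.

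In glutathione synthesis and cystine use, downstream of Slc7a11, 12 of 13 genes were listed and 9 tested, of which 3 were higher and 2 lower, against 18.4% of all tested genes called, with a median log2 fold change of 0.22. Of the 8 fits that left out a library, Gclm and Gpx1 were called in 3 each, Gclc and Gss in 2 each and Txnrd1 in 1. Gclm, the modifier subunit of the rate-limiting ligase, was at 23.4, 19.1, 15.0 and 12.7 FPKM in LysM0 to LysM3 and at 30.2, 41.5, 28.5 and 27.6 FPKM in K2KO0 to K2KO3. The genotypes did not overlap although each varied widely, and the log2 fold change was 0.88 (SE 0.19, limma adjusted p = 0.0196) and 0.66 after the correction (limma adjusted p = 0.0515). Its catalytic partner Gclc rose by 0.62 (log2, limma adjusted p = 0.0262; corrected 0.57, limma adjusted p = 0.0484). Txnrd1, a thioredoxin reductase, rose by 0.53 (limma adjusted p = 0.0494) and by 0.49 after the correction, where it was not called (limma adjusted p = 0.0828). Gss, which completes glutathione, and the peroxidase Gpx1 were lower, at -0.30 and -0.48 (log2, limma adjusted p = 0.0293 and 0.0247). After the correction Gss was still called (limma adjusted p = 0.0282) and Gpx1, at -0.26, was not (limma adjusted p = 0.0757). Gpx4 was not called (limma adjusted p = 0.250).

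Among mTORC1 and amino-acid sensing genes, beside Sesn2, 22 of 24 were tested, 3 were higher and 1 lower. This share of 18.2% was near the 18.4% of all tested genes called, and the median log2 fold change was 0.05. Rragd, a Rag GTPase that brings mTORC1 to the lysosome, was at 3.24, 2.50, 2.08 and 2.30 FPKM in LysM0 to LysM3 and at 4.14, 5.65, 4.96 and 3.86 FPKM in K2KO0 to K2KO3. It was higher in each library labelled K2KO, with a log2 fold change of 0.86 (SE 0.16, limma adjusted p = 0.0126) and 0.73 after the correction (limma adjusted p = 0.0237). Rheb and Rragc rose by 0.39 and 0.27 (log2, limma adjusted p = 0.0290 and 0.0364), and after the correction they were at 0.27 and 0.23, neither called. With a library left out, Rheb was called in 2 and Rragc in 1 of the 8 fits. Nprl2, a subunit of the GATOR1 brake on the Rag GTPases, fell from 18.3 ± 1.61 to 12.9 ± 1.04 FPKM (SD, n = 4), with a log2 fold change of -0.51 (limma adjusted p = 0.00954). Rraga was not called (limma adjusted p = 0.731).

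The ATF6 and XBP1 branches of the unfolded protein response gave a comparison outside the ATF4 branch. All 16 of their genes were tested, 0 were higher and 1 lower, and the median log2 fold change was -0.01. The call made up 6.25%, against 18.4% of all tested genes. An unadjusted p under 0.05 was reached by 11 of the 16, in which log2 fold changes had either sign, where 37.8% of all tested genes reached it, and 6 of the 16 did not overlap, against 23.1%. Manf, a secreted endoplasmic reticulum protein, fell from 65.9 ± 10.2 to 46.3 ± 4.37 FPKM (SD, n = 4), with a log2 fold change of -0.50 (limma adjusted p = 0.0237). With a library left out, Manf was called in 2 of the 8 fits. Hspa5 (BiP) and Calr, the most abundant chaperones of the list, were at log2 fold changes of -0.10 and 0.00 (limma adjusted p = 0.406 and 0.981). After the GC and length correction Hsp90b1 was also called, at -0.38 (limma adjusted p = 0.0220).

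**Figure D4:**
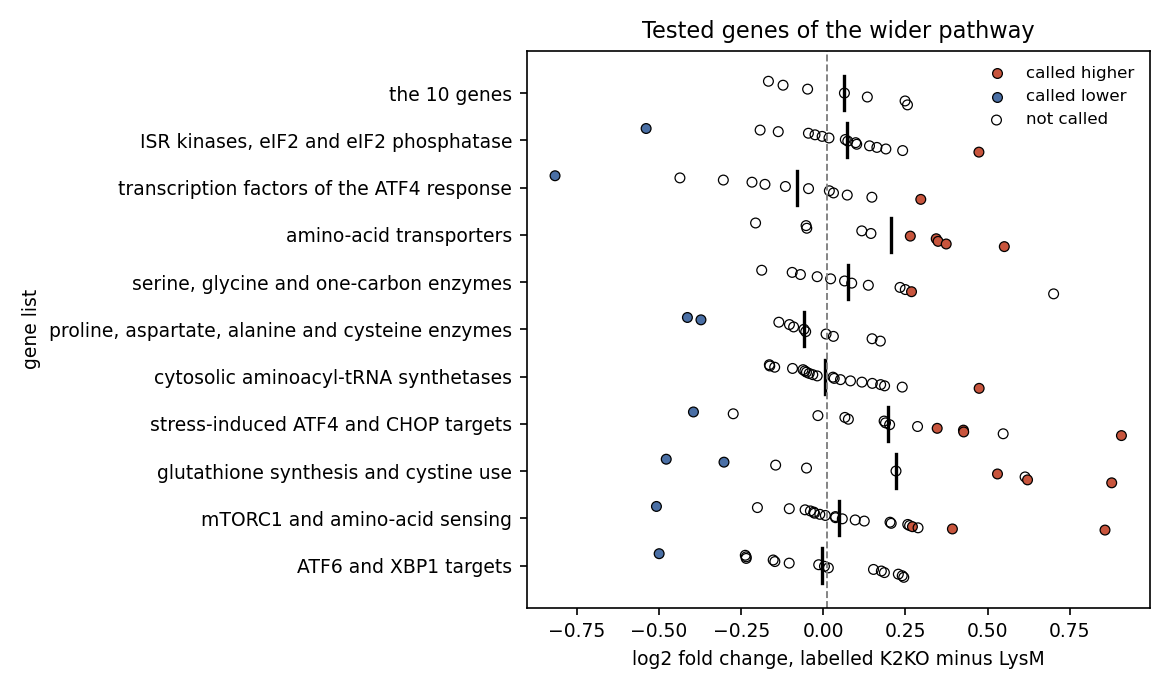
Log2 fold change, libraries labelled K2KO minus LysM, of each tested gene (points) in the 10 genes and in 10 further lists (vertical axis), with red for genes called higher, blue for genes called lower and open points for genes not called. Bars are list medians and the dashed line is the median of all 10920 tested genes, 0.01. The 7 tested genes of the first row are all open, and the amino-acid transporters hold 5 red points.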

How the data were processed

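Total RNA of BMDMs from 4 LysM and 4 K2KO mice was sequenced, with 1 library per mouse. The authors deposited 1 table of FPKM for 23761 genes. The study's methods name TopHat2 and Cufflinks, while the submitters' processing notes name STAR, Cufflinks and Cuffdiff, on mm10. Versions are not given in the sources used here. The methods name a stranded library kit and an RNeasy RNA isolation kit, the labels a Roche one. The 0 to 3 that end the column names were not tied to single mice, and 0 columns were left unmapped. FPKM carry no read counts, so depth is unknown and no counting interval or detection limit was given. Ratios between the lowest values gave relative depths of 0.901 to 1.44 times that of LysM0. The summed FPKM ranged from 497253 to 551608 in LysM and from 448235 to 501965 in K2KO.

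Identifiers of 23645 genes were matched to GENCODE M21 (GRCm38), and promoter windows came from RefSeq (GRCm38.p6). The comparison of genotypes used limma 3.58.1 (intensity trend, no covariate) in R 4.3.3 on log2(FPKM + 0.1), over the 10920 genes whose mean was 1 FPKM or more, with Benjamini-Hochberg adjustment over all of them. Members with a mean under 1 FPKM took their values from the same fit over 14521 genes with a mean of at least 0.1 FPKM. For single values an exact two-sided permutation test was run on the 8 libraries. Near-identical copies were found with BLAST 2.17.0. GC content and length were corrected in each library by local regression (span 0.3).

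The members and gene lists were chosen with earlier results of these data known. Named are the 10 genes, Klf2, every called gene and the 2 most abundant tested genes of each list, the 5 genes most like the members' mean z-score, and cell type markers, except for 2 genes that are not reported here. Gapdh, Cd14, Mars, Tuba1b, Mthfd2, the Eif2ak genes, Slc1a5, Tfe3 and Hsp90b1 were named after their values were seen. Alternatives were a pseudocount of 1 or 0.01, other filters, upper-quartile or quantile scaling, no intensity trend, ordinary least squares, the GC and length correction, a block on the column number, and leaving out each library. The correction together with the filter of 0.1 FPKM was chosen after seeing the data. Whether same-numbered columns deviate together was checked by correlation over genes.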

Additional observations from a re-analysis of the deposited data

Results flagged for a closer look

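In 5 of 114 groups of 4 libraries examined, over the named genes of the pathway lists, the 10 members and Klf2, 1 library stood apart from the other 3, where chance gives about 1 in 20 groups, or 5.7. None of the 5 was among the 10 members. Ppp1r15a was at 44.1254 FPKM in LysM2 and Mat2a at 39.5721 FPKM in LysM2, the first below and the second above the other LysM libraries. Glul was at 149.963 FPKM in LysM0, below the others, and Nprl2 was at 20.7345 FPKM in LysM3, above the others. Slc38a2 was at 11.9827 FPKM in K2KO3, below the other libraries labelled K2KO.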

How the results depend on the processing

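None of the 7 members with a mean of at least 1 FPKM was called under any of the 20 alternatives, which include the 8 fits with a library left out. Chac1, Phgdh and Slc7a11 were tested under 3 of them, those with a lower filter or none, and were not called. An unadjusted p under 0.05 was reached by Asns (upper-quartile scaling, the block, without K2KO0), Shmt2 (without LysM2), Atf4 (without K2KO3), and Chac1 and Phgdh (filter of 0.1 FPKM with the GC and length correction). The 2014 calls over all genes were 1090 with no filter, 746 with ordinary least squares, 1047 with the GC and length correction, 874 with the block added to it, 1079 with the correction at 0.1 FPKM, and 337 to 2837 with a library left out. The 28 calls in the lists were 13, 9, 14, 13, 12 and 5 to 33 in the same order.

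Log2 fold changes that turned sign were small. With the GC and length correction, with or without the block, Klf2 was 0.048, Shmt2 0.011 and Gpx4 0.106, and at 0.1 FPKM Klf2 was 0.00255 and Gpx4 0.067. With quantile normalization Atf4 was 0.024, Ddit3 0.076, Sesn2 -0.0094, Glul 0.081, Sars 0.049 and Hspa5 0.046. With a library left out Klf2 stayed negative, at -0.31 to -0.07. For genes that turned sign there, the ranges were -0.13 to 0.066 for Ddit3, -0.016 to 0.30 for Trib3, -0.018 to 0.14 for Sesn2 and -0.011 to 0.078 for Atf3. They were -0.054 to 0.14 for Got1, -0.10 to 0.00097 for Sars, -0.0012 to 0.084 for Rraga and -0.050 to 0.063 for Calr. The cause was not tested. Over all 46 named list genes, 432 of 552 values with all libraries and 240 of 368 with a library left out kept their direction and call.

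Same-numbered columns shared little of their deviations, which does not tell whether they were prepared as pairs. Same-numbered deviations correlated at -0.07, 0.02, 0.07 and -0.06, and of the K2KO libraries only K2KO2 correlated best with its own number. With a replicate block on the number 2057 genes were called, 0 of the 7 tested members and 23 of the 28 list genes. The depth behind each FPKM is unknown, so the 3 members under 1 FPKM are the least certain.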
